A study of Homo sapiens with 6 samples.

Results

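Genes of the synapse and of the neuronal cytoskeleton were examined in Y79 cells transduced with control or MYCN-targeting shRNA. The set was a list of 51 genes matched by symbol to the gene column of the deposited table. It found 50 of them among the 17013 genes with values, and SLC17A6 is not analysed here. Y79 is an established human retinoblastoma line. Its cells were labelled MYCN wild-type with the control shRNA (3 libraries) or MYCN knockdown with the MYCN-targeting shRNA (3 libraries), and the labels place all 6 libraries in batch 1. The poly(A) RNA libraries are described as independent biological replicates of 1 line, so the p-values measure spread between these cultures and not between lines or hairpins. How many hairpin sequences were used, and how long after transduction the cells were taken, is not known here.

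A synapse releases transmitter when SNARE proteins on vesicle and plasma membrane zip together after calcium entry. Complexins regulate that step, synaptotagmins sense the calcium, and Munc13, RIM, Bassoon and Piccolo organise the release site. Photoreceptors and bipolar cells release continuously at ribbon synapses, which use their own versions of several of these proteins, among them RIBEYE, syntaxin 3 and complexins 3 and 4. Behind the terminal, neurofilaments and microtubule-associated proteins shape the neurite, with tau enriched in axons and MAP2 in dendrites. Retinoblastoma cells share many traits with immature cone photoreceptors.

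Depth was 15490263 to 16078416 estimated counts per library. MYCN itself stood at 3046, 3128 and 2876 CPM, the usual depth-scaled count, in control replicates 1, 2 and 3 and at 2413, 2284 and 2195 CPM under the MYCN hairpin, with no overlap (log2 fold change -0.39 ± 0.043, SE, or -0.21 with library sizes alone). CPM values here are scaled by trimmed-mean factors. All 10 photoreceptor markers on a list of retinal cell type genes were tested, and they summed to 2622 to 2741 CPM in controls and 2362 to 2427 CPM under the MYCN hairpin, with 7 of them risen and 3 fallen. Of the bipolar markers ISL1 was at 0 counts in all libraries and VSX1, TRPM1 and GRIK1 stayed under 1 CPM in both groups. Of the Müller glia markers RLBP1, AQP4, SOX9 and GFAP stayed under 1 CPM on average, although SOX9 went from 5 to 44 summed counts, while VIM rose from 329 to 528 CPM and GLUL fell from 837 to 655 CPM. That list summed to 1150 to 1195 CPM in controls and 1172 to 1205 CPM in the other group. Of 4 tested pigment epithelium markers 2 rose, RPE65 from 11 to 235 summed counts and BEST1 from 111 to 293, and the list, mostly DCT, summed to 335 to 359 and 333 to 354 CPM. Amacrine and horizontal cell markers summed to 214 to 234 and 220 to 221 CPM. Of the fibroblast markers DCN and LUM had 1 count each over the 6 libraries together. COL1A1 rose from 50 to 137 summed counts and COL1A2 from 19 to 93, and PDGFRB did not pass. Bipolar markers, which include CABP5, summed to 87.2 to 93.3 CPM in controls and 96.4 to 102 CPM in the other group, and ganglion cell markers, mostly NEFH, to 303 to 331 and 353 to 372 CPM. Fibroblast markers summed to 2.22 to 2.67 CPM in controls and 5.06 to 6.43 CPM under the MYCN hairpin, and the part of these lists in the results below was not tested. Bulk RNA cannot separate fewer cells of a type from less RNA per cell.

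Of the 50 genes, 43 had enough counts to be tested. With the MYCN hairpin 13 of them were higher and 23 lower (edgeR quasi-likelihood test, adjusted p under 0.05 over all genes tested), and 7 did not pass. Over all 12819 genes tested, 75.8% were called, 38.0% higher and 37.9% lower. The share called among synapse and cytoskeleton genes, 83.7%, was near that background. In the lower direction 53.5% of them were called and in the higher direction 30.2%. Their median log2 fold change was -0.13, where that of all genes was 0.00. The libraries of the groups did not overlap for 36 of the 43, or 83.7%, against 76.8% of all genes tested. At least 2-fold changes were seen in 2 higher and 5 lower members, where 9.24% and 5.25% of all genes tested changed that much. Scaled by library size alone, the median over all genes was 0.19, the split of all genes went from 4865 higher and 4857 lower to 6597 and 3348, and that of the members to 15 and 17.

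**Figure D1:**
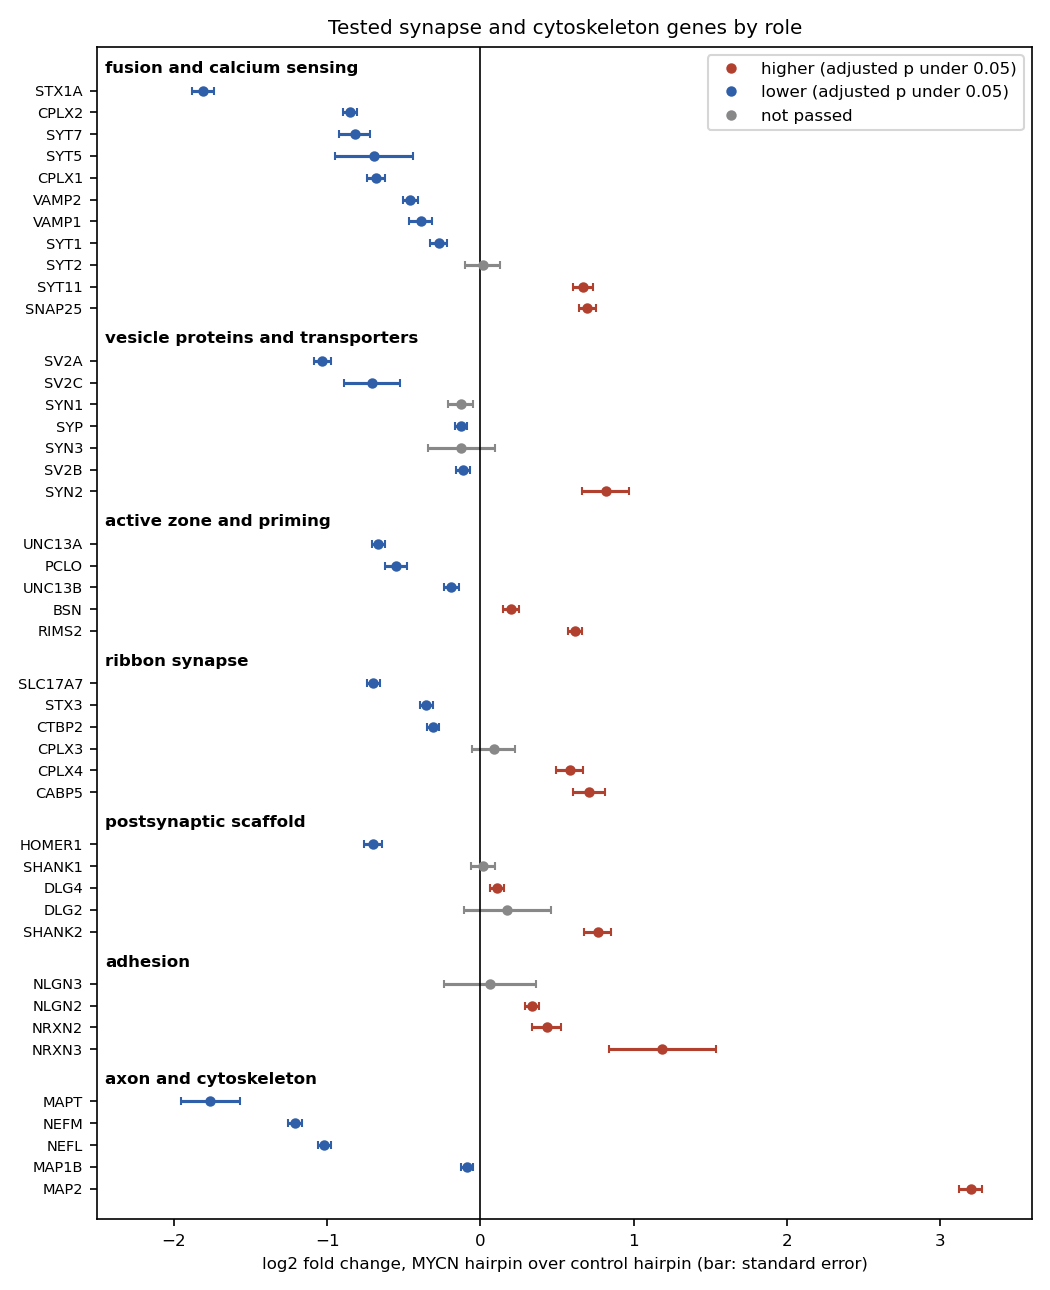
Log2 fold change (x axis, MYCN hairpin over control hairpin) with its standard error for the 43 tested genes, grouped by role on the y axis and coloured by the edgeR call. MAP2 lies far to the right at 3.20, STX1A and MAPT lie farthest to the left at -1.81 and -1.76, and tested adhesion genes lie at or right of 0.06.

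The neuronal cytoskeleton held the widest range, with MAP2 far higher and tau and 2 neurofilament genes lower. MAP2 encodes a microtubule-associated protein of dendrites (chromosome 2, 209424058 to 209734118, plus strand, GRCh38). It measured 11.6, 11.5 and 11.3 CPM in control replicates 1, 2 and 3, and 92.8, 114 and 109 CPM under the MYCN hairpin. Every MYCN hairpin library stood far above every control library. The log2 fold change of MAP2 was 3.20 ± 0.077 (SE; edgeR, adjusted p = 1.5e-25), a 9.19-fold higher level. The 250 bases before the MAP2 start site that lies nearest to the start of the GENCODE 29 transcript used here are shown because no other member rose as much. They were read from RefSeq promoters (GRCh38.p14, chr2:209579082-209579331, plus strand), which list 3 starts for MAP2, and the gene counts do not tell these starts apart.
MAP2: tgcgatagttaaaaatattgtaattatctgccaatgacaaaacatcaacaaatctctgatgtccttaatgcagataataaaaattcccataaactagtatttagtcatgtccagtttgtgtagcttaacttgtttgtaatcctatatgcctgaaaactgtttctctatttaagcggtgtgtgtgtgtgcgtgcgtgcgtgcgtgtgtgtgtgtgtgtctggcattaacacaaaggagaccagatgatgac

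MAPT, which encodes tau, the microtubule-associated protein of axons (chromosome 17, 45894382 to 46028334, plus strand), moved the other way. It measured 4.07, 5.07 and 4.44 CPM in controls and 1.19, 1.39 and 1.40 CPM under the MYCN hairpin. The groups did not overlap, and MAPT fell by 1.76 ± 0.19 in log2 terms (SE; edgeR, adjusted p = 7.3e-11). The antisense gene MAPT-AS1 shares 75 of the 14920 exonic bases of MAPT.

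MAP1B is a microtubule-associated protein of growing axons. It stood at 531, 519 and 571 CPM in controls and at 516, 493 and 515 CPM under the MYCN hairpin. Its groups were separated by a narrow gap. The log2 fold change of -0.09 ± 0.040 passed the test at an adjusted p of 0.041 (edgeR), but not when either control replicate 3 or any MYCN hairpin library was left out (adjusted p = 0.157 without control replicate 3, 0.0621, 0.202 and 0.0570 without MYCN hairpin replicates 1, 2 and 3). With library sizes alone it was 0.09 and called higher (adjusted p = 0.0231).

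Within a library the balance of these proteins' transcripts does not depend on scaling between libraries. MAPT counts were 0.356, 0.441 and 0.392 of MAP2 counts in controls and 0.0131, 0.0125 and 0.0131 under the MYCN hairpin, a change of -4.93 in the log2 ratio. MAP1B counts were 45.8, 44.9 and 50.3 times those of MAP2 in controls and 5.56, 4.31 and 4.71 times under the MYCN hairpin. An exact two-sided permutation test over the libraries gave p = 0.1 for each ratio, the smallest that 3 against 3 libraries can give. Adjusted over 18 gene pairs, this p was 0.138. Per kilobase of transcript, MAP2 made up 2.53% ± 0.15 (SD, n = 3) of MAP2, MAPT and MAP1B together in controls and 20.4% ± 2.1 (SD, n = 3) under the MYCN hairpin.

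The neurofilament genes NEFL and NEFM, which encode the light and medium chains of the axonal filament, both fell. NEFL measured 245, 265 and 266 CPM in controls and 127, 128 and 128 CPM under the MYCN hairpin, a log2 fold change of -1.02 ± 0.041 (SE; edgeR, adjusted p = 7.2e-25). NEFM measured 136, 145 and 145 CPM in controls and 60.8, 59.2 and 63.3 CPM under the MYCN hairpin, a log2 fold change of -1.21 ± 0.046 (adjusted p = 1.3e-25). Neither gene had overlapping groups. The counts of NEFM were 0.555, 0.547 and 0.543 of NEFL counts in controls and 0.480, 0.463 and 0.494 under the MYCN hairpin (exact permutation p = 0.1, adjusted p = 0.138). An annotated antisense gene shares 38.9% of the exonic bases of NEFM and another shares 11.3% of those of NEFL. Reads of opposite strands cannot be told apart here, because no source used here states the strand setting of the counting.

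GAP43, a growth cone protein, and STMN2, a stathmin of growing axons, had too few counts to be tested. GAP43 had 3, 1 and 1 control counts and 9, 9 and 13 under the MYCN hairpin. The ratio of the summed counts was 6.20, with a 95% exact interval of 2.39 to 20.4 that covers counting error only. In an edgeR fit with no filter on low counts GAP43 was called higher (adjusted p = 3.8e-04). STMN2 was at 0 counts in all 6 libraries, which allows up to 0.0631 CPM in controls and 0.0642 CPM under the MYCN hairpin. Both were thus near or at the limit of detection at this depth.

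**Figure D2:**
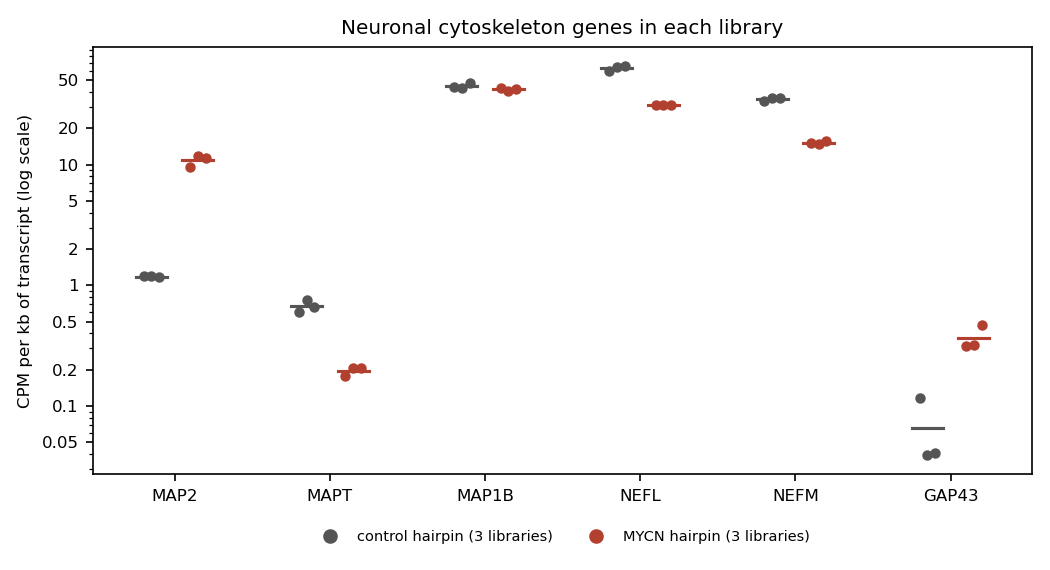
CPM per kilobase of transcript (y axis, log scale) of 6 cytoskeleton genes in each library, with grey points for the 3 control and red points for the 3 MYCN hairpin libraries and a bar at each mean. MAP2 moves from 1.18 to 10.9, while MAPT, NEFL and NEFM lie lower under the MYCN hairpin and MAP1B moves from 44.9 to 42.2.

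Among genes of membrane fusion and calcium sensing 8 of 11 tested were lower and 2 higher, and their median log2 fold change was -0.46, or -0.28 with library sizes alone. Of all genes tested 37.9% were lower and 38.0% higher, and of 25 other tested genes of this role 12 were lower and 9 higher. STX1A, the plasma membrane syntaxin of conventional synapses (chromosome 7, 73699206 to 73719672, minus strand), led them. It measured 42.1, 37.5 and 39.0 CPM in controls and 11.2, 11.2 and 11.3 CPM under the MYCN hairpin. The groups lay far apart, and STX1A was 3.51-fold lower (log2 fold change -1.81 ± 0.074, SE; edgeR, adjusted p = 1.7e-24). BUD23, on the opposite strand, shares 17.9% of the exonic bases of STX1A and had a log2 fold change of -0.33. The 250 bases before the start of STX1A (RefSeq, GRCh38.p14, chr7:73719670-73719919, minus strand) are shown because no other tested member fell as much.
STX1A: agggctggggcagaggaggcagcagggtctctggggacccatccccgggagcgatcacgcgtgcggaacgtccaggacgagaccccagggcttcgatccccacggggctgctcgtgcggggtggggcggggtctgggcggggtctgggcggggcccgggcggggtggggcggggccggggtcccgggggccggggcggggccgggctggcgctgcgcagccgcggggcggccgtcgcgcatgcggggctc

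The SNARE partners of STX1A differed in direction. SNAP25, the other plasma membrane SNARE, rose by 0.70 ± 0.056 in log2 terms (SE; edgeR, adjusted p = 9.0e-15), from 42.0, 38.3 and 38.7 CPM to 61.6, 63.8 and 67.6 CPM. Per kilobase of transcript, SNAP25 and STX1A stood at 19.3 and 18.9 CPM in controls, where their libraries overlapped, and at 31.3 and 5.38 CPM under the MYCN hairpin. Both vesicle SNAREs fell. VAMP2 went from 80.7, 83.6 and 85.6 CPM to 59.3, 62.1 and 60.6 CPM (log2 fold change -0.46). VAMP1 had a log2 fold change of -0.39. An annotated gene on the same strand shares 13.2% of the exonic bases of VAMP2. TAPBPL, on the opposite strand, shares 9.47% of those of VAMP1. VAMP1 counts were 0.276, 0.275 and 0.274 of VAMP2 counts in controls and 0.286, 0.283 and 0.295 under the MYCN hairpin, a log2 shift of 0.07.

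Among complexins 2 fell, 1 rose and 1 did not pass. CPLX1 and CPLX2, the forms of conventional synapses, fell, with log2 fold changes of -0.68 ± 0.057 and -0.85 ± 0.045 (SE; edgeR, adjusted p = 4.4e-14 and 1.4e-20). CPLX2 measured 117, 119 and 117 CPM in controls and 65.2, 63.6 and 66.9 CPM under the MYCN hairpin. CPLX4, a ribbon synapse form, rose by 0.58 ± 0.087 (adjusted p = 1.1e-06), from 17.3, 20.2 and 22.3 CPM to 25.9, 31.4 and 32.2 CPM. Its groups did not overlap. CPLX3, the other ribbon form, did not pass, at 5.11 ± 0.54 and 5.43 ± 0.64 CPM (SD, n = 3; log2 fold change 0.09, 95% interval -0.19 to 0.36), and an annotated gene on the same strand shares 99.7% of its exonic bases. Per kilobase of transcript, CPLX3 and CPLX4 together made up 17.7%, 20.2% and 21.9% of the 4 complexins in controls and 33.1%, 39.7% and 38.8% under the MYCN hairpin. On the same scale, CPLX4 at 10.1 CPM per kilobase stood below CPLX1 at 27.2 and CPLX2 at 23.4 in controls. With the MYCN hairpin it stood at 13.2, 16.0 and 16.4, overlapping CPLX1 at 18.2, 15.9 and 16.7.

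Of the synaptotagmins, the calcium sensors of release and their relatives, SYT1, SYT5 and SYT7 fell and SYT11 rose. SYT1, the fast sensor, measured 71.9, 61.9 and 74.9 CPM in controls and 59.9, 55.6 and 57.2 CPM under the MYCN hairpin (log2 fold change -0.27; -0.09 and not called with library sizes alone, adjusted p = 0.149). SYT7, a slow high-affinity sensor, fell by 0.82 ± 0.10 from 13.3 ± 0.43 to 7.51 ± 0.23 CPM (SD, n = 3; edgeR, adjusted p = 2.0e-09). SYT7 counts fell relative to SYT1 counts, from 0.184, 0.222 and 0.173 to 0.126, 0.132 and 0.136. SYT5 was scarce, at 1.79 and 1.10 CPM, and its call was lost without MYCN hairpin replicate 3 (adjusted p = 0.0966) and by DESeq2 (adjusted p = 0.101). SYT11, which lacks calcium binding, rose from 28.4, 23.5 and 29.3 CPM to 41.6, 43.4 and 44.3 CPM (log2 fold change 0.67). Its share of the 6 listed synaptotagmins per kilobase went from 21.5% ± 0.73 to 35.4% ± 1.2 (SD, n = 3). SYT2 did not pass, at 8.97 ± 0.58 and 9.05 ± 1.2 CPM (95% interval of the log2 fold change -0.21 to 0.24), and PPP1R12B on the opposite strand shares 27.2% of its exonic bases. SYT4 had 1 count in all libraries together.

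**Figure D3:**
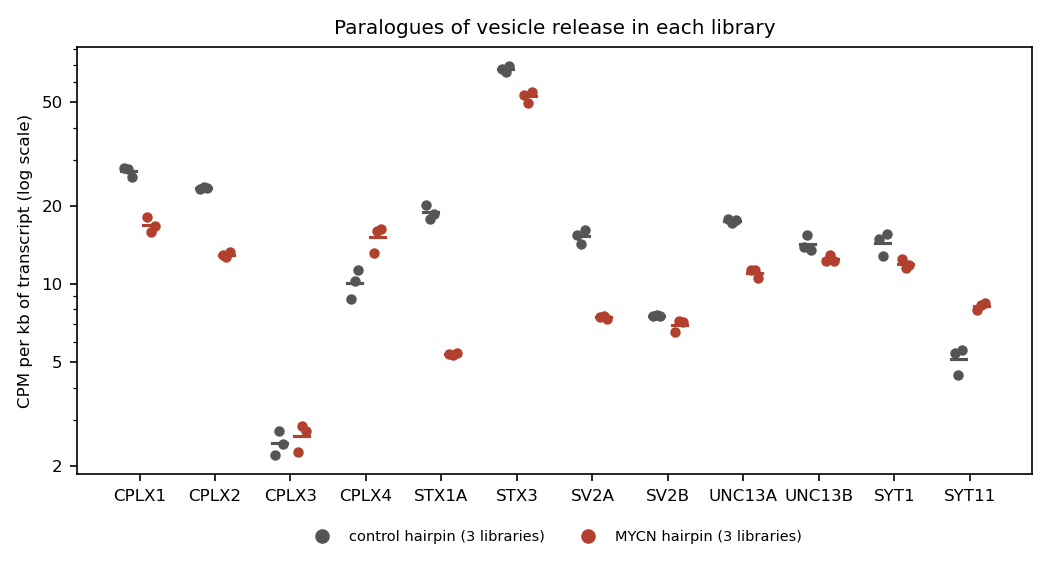
CPM per kilobase of transcript (y axis, log scale) of 12 paralogues of vesicle release in each library, with grey points for the 3 control and red points for the 3 MYCN hairpin libraries and a bar at each mean. CPLX1, CPLX2, STX1A, SV2A and UNC13A lie lower under the MYCN hairpin, whereas CPLX4 and SYT11 lie higher.

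Of the vesicle proteins 4 of 7 tested fell and 1 rose, with a median of -0.13, or 0.05 with library sizes alone. Over all genes tested 37.9% were lower and 38.0% higher, and of 32 other tested vesicle genes 12 fell and 12 rose. SV2A, a glycoprotein found on most synaptic vesicles (chromosome 1, 149903318 to 149917882, minus strand), measured 68.2, 63.2 and 71.1 CPM in controls and 33.0, 33.4 and 32.6 CPM under the MYCN hairpin. It fell by 1.03 ± 0.056 in log2 terms (SE; edgeR, adjusted p = 3.2e-20), and no libraries of the groups overlapped. SV2B, the relative found in photoreceptor terminals, measured 84.8, 86.2 and 84.9 CPM in controls and 74.1, 81.2 and 81.0 CPM under the MYCN hairpin. Its log2 fold change of -0.11 lay close to the threshold (adjusted p = 0.028). It was -0.07 without MYCN hairpin replicate 1 (adjusted p = 0.222) and -0.11 without control replicate 2 (adjusted p = 0.0560), and with library sizes alone it turned to 0.07. SV2B counts rose relative to SV2A counts, from 1.24, 1.36 and 1.19 times to 2.25, 2.43 and 2.48 times. Per kilobase SV2A stood at 15.3 CPM and SV2B at 7.56 CPM in controls, and at 7.47 and 6.99 CPM under the MYCN hairpin. SV2C was scarce and fell, from 3.87 ± 0.59 to 2.37 ± 0.46 CPM.

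Synaptophysin, SYP, an abundant vesicle membrane protein, differed little. It measured 159, 160 and 163 CPM in controls and 143, 148 and 149 CPM under the MYCN hairpin, a log2 fold change of -0.13 (edgeR, adjusted p = 0.0037) that turned to 0.05 with library sizes alone. Synapsins tether vesicles in the reserve pool. SYN1 did not pass, at 19.3 ± 2.1 and 17.6 ± 0.72 CPM (SD, n = 3; 95% interval of the log2 fold change -0.29 to 0.03), nor did SYN3 at 2.08 and 1.91 CPM. SYN2 rose by 0.82 ± 0.15 from 3.54, 3.33 and 2.57 CPM to 5.65, 5.79 and 5.25 CPM (adjusted p = 8.7e-06). Its counts went from 0.199, 0.185 and 0.120 of SYN1 counts to 0.337, 0.318 and 0.298. TIMP3, which lies inside SYN3 on the opposite strand, had 609 control counts and 4025 under the MYCN hairpin, while SYN3 counts were between 26 and 37.9 in each library. TIMP1, inside SYN1, had 4 counts in each group. Neither TIMP3 nor TIMP1 shares annotated exonic bases with the synapsin gene around it. TIMP4, inside SYN2 on the opposite strand, has no values here and shares 2.99% of the exonic bases of SYN2. For SYN1, an annotated gene on the same strand shares 7.77% of its exonic bases, and ARAF on the opposite strand 0.6%. SNAP91, a clathrin assembly protein, had 8 control counts and 16 under the MYCN hairpin and was not tested.

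At the active zone 3 of 5 tested genes fell and 2 rose, where 37.9% of all genes tested were lower and 38.0% higher. Among 19 other tested active zone genes 6 fell and 7 rose. UNC13A, which encodes Munc13-1 and primes vesicles for release, fell by 0.67 ± 0.042 in log2 terms (SE; edgeR, adjusted p = 3.1e-18). It measured 175, 169 and 174 CPM in controls and 112, 111 and 104 CPM under the MYCN hairpin. UNC13B, or Munc13-2, measured 87.3, 97.2 and 85.3 CPM in controls and 77.6, 81.6 and 77.4 CPM under the MYCN hairpin (log2 fold change -0.19; -0.01 and not called with library sizes alone, adjusted p = 0.889). Per kilobase UNC13A stood above UNC13B in controls, at 17.6 and 14.3 CPM, and below it under the MYCN hairpin, at 11.1 and 12.5 CPM. The lowest UNC13B library under the MYCN hairpin lay at 12.3 and the highest UNC13A library at 11.3 CPM per kilobase.

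RIMS1 had 2 control counts and 1 under the MYCN hairpin, so RIMS2 was the one of this pair that could be tested. RIM proteins tether calcium channels and vesicles at release sites. RIMS2 rose by 0.62 ± 0.046 from 68.5, 65.8 and 67.5 CPM to 102, 105 and 103 CPM (edgeR, adjusted p = 8.7e-16). The giant scaffolds Bassoon and Piccolo, which also anchor ribbons, parted. BSN measured 46.7, 46.6 and 45.7 CPM in controls and 54.7, 53.6 and 51.1 CPM under the MYCN hairpin (log2 fold change 0.20, adjusted p = 0.0011). PCLO measured 30.1, 31.5 and 27.3 CPM in controls and 18.9, 20.8 and 20.9 CPM under the MYCN hairpin (log2 fold change -0.55, adjusted p = 4.8e-09). PCLO counts were 0.646, 0.677 and 0.598 of BSN counts in controls and 0.346, 0.389 and 0.410 under the MYCN hairpin.

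Ribbon synapse genes did not move together: 3 of 6 tested fell, 2 rose, and the median log2 fold change was -0.11, or 0.07 with library sizes alone. The shares over all genes tested were 37.9% lower and 38.0% higher, and 13 other tested ribbon synapse genes held 3 lower and 6 higher. STX3, the syntaxin of ribbon terminals, stood at 67.4 CPM per kilobase in controls, above SYP at 64.2, and at 52.7 under the MYCN hairpin, below SYP at 58.7. It measured 223, 217 and 227 CPM in controls and 176, 165 and 181 CPM under the MYCN hairpin (log2 fold change -0.35 ± 0.040, SE; edgeR, adjusted p = 2.3e-10). Because STX1A fell more, STX3 counts rose from 5.28, 5.78 and 5.81 times to 15.6, 14.7 and 15.9 times those of STX1A. SLC17A7, the vesicular glutamate transporter VGLUT1 of photoreceptors, fell by 0.70 ± 0.045 from 134, 145 and 139 CPM to 89.1, 82.6 and 85.9 CPM (adjusted p = 6.0e-18). CTBP2, whose gene encodes both a nuclear corepressor and the ribbon protein RIBEYE, measured 168, 167 and 169 CPM in controls and 137, 139 and 130 CPM under the MYCN hairpin. The counts per gene do not tell these products apart, and ZRANB1 on the opposite strand shares 31.2% of the exonic bases of CTBP2. CABP5, a calmodulin-like calcium-binding protein of bipolar cells and their terminals, rose by 0.71 ± 0.10 from 8.6, 8.47 and 7.90 CPM to 12.0, 14.1 and 14.8 CPM (adjusted p = 7.7e-08). CABP4, which tunes the photoreceptor calcium channel, had 17 control counts and 13 under the MYCN hairpin and was not tested.

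**Figure D4:**
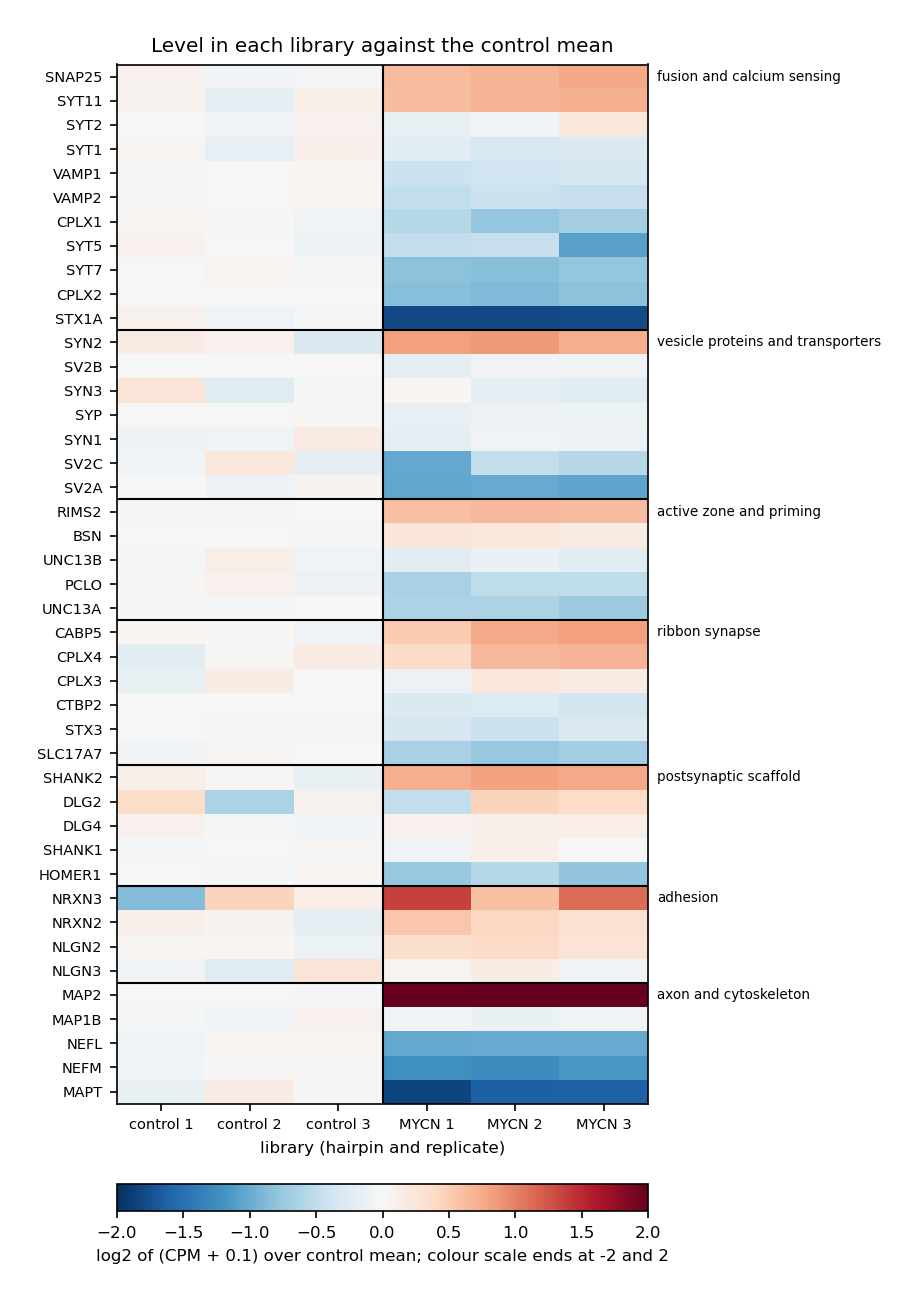
Level of the 43 tested genes (y axis, by role) in each of the 6 libraries (x axis) as the log2 of CPM plus 0.1 over the control mean, blue for lower and red for higher, with the colour scale ending at -2 and 2. MAP2 is deep red and STX1A and MAPT deep blue in all 3 MYCN hairpin libraries, and the replicates of a group resemble each other except for scarce genes such as NRXN3 and DLG2.

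Of the 4 neurexin and neuroligin genes tested 3 rose and 0 fell, where 38.0% of all genes tested were higher, and the median change was 0.38 (0.57 with library sizes alone). Other synaptic adhesion genes went both ways, with 11 of 24 tested higher, 9 lower and a median of 0.02. Neurexins are presynaptic receptors for the postsynaptic neuroligins. NRXN2 rose by 0.43 ± 0.094 from 13.5, 13.2 and 10.9 CPM to 18.5, 16.8 and 15.6 CPM (edgeR, adjusted p = 7.2e-05). NRXN3 (chromosome 14, 78170373 to 79868290, plus strand) was scarce, at 0.263, 0.800 and 0.624 CPM in controls and 1.61, 0.905 and 1.34 CPM under the MYCN hairpin. Its log2 fold change was 1.19 ± 0.35 (adjusted p = 0.0022), and the ratio of summed counts was 2.56 (95% exact interval for counting error, 1.59 to 4.24). The gap between the groups was narrow. NLGN2, the neuroligin known from inhibitory synapses and at 20.9 CPM per kilobase in controls the highest of these genes, rose by 0.34 ± 0.047 from 101, 100 and 90.0 CPM to 124, 127 and 117 CPM (adjusted p = 2.4e-08). NLGN3 did not pass, at 0.966 and 1.00 CPM, and NLGN1 had 1 count over the 6 libraries together.

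Of the 5 postsynaptic scaffold genes 2 rose and 1 fell, where 38.0% of all genes tested were higher and 37.9% lower. Among 18 other tested scaffold genes 9 rose and 5 fell. SHANK2 rose by 0.77 ± 0.089 from 12.3, 11.4 and 10.1 CPM to 18.7, 19.8 and 19.1 CPM (SE; edgeR, adjusted p = 3.2e-10), while SHANK1 stayed at 19.5 ± 0.33 and 19.7 ± 1.2 CPM (SD, n = 3; 95% interval of the log2 fold change -0.13 to 0.17). SHANK proteins form the deep layer of the postsynaptic density. SHANK1 was called higher with library sizes alone (0.20, adjusted p = 0.0208). SHANK2 counts went from 0.641, 0.588 and 0.511 of SHANK1 counts to 1.01, 0.943 and 0.978. HOMER1, which links SHANK to metabotropic receptors, fell by 0.70 ± 0.059 from 55.1, 54.9 and 57.1 CPM to 33.0, 37.5 and 32.3 CPM (adjusted p = 3.1e-14). DLG4, or PSD-95, which also occurs in photoreceptor terminals, measured 112, 103 and 102 CPM in controls and 112, 114 and 116 CPM under the MYCN hairpin. The highest control library nearly reached the lowest of the other group. Its log2 fold change of 0.11 (adjusted p = 0.029) lost its call when control replicate 2 or 3 or MYCN hairpin replicate 2 or 3 was left out (adjusted p = 0.119, 0.0971, 0.0628 and 0.103). DLG2 was scarce, at 1.30 and 1.47 CPM, and did not pass.

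Promoters of the members were searched for a pair of short motifs, because MYC proteins bind the E-box CACGTG and the neuronal repressor REST binds a long element, RE1, whose left part holds the letters TCAGCACC. Both strands were searched in the RefSeq windows of 300 bases around each start, which were found for 38 of the 51 genes (73 windows). UNC13A held both motifs, which did not overlap. The E-box occurred in 2.74% of the members' windows and in 7.26% of all 35116 windows. The RE1 letters occurred in 9.59% of the members' windows and in 1.67% of all windows. These are matches of letters and not measured binding, and 13 of the genes had no window. The genes with an E-box were CPLX3, which did not pass the test, and UNC13A, which fell. The genes with the RE1 letters were SYN1, SV2B, SV2C, PCLO, UNC13A, DLG2 and SYT4. Of these SV2C, PCLO and UNC13A fell by at least 0.55 on the log2 scale, SV2B had a log2 fold change of -0.11 as given above, SYN1 and DLG2 did not pass, and SYT4 had 1 count. MAP2 and STX1A, shown above, held neither motif in their windows.

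Stretches of 60 bases that hold the motifs are shown so that the letters can be compared, with the motif in capitals on the gene's strand, in either orientation (GRCh38.p14). They lie at chr15:74826437-74826496 (CPLX3, plus strand), chr19:17688545-17688604 (UNC13A, minus strand), chrX:47620048-47620107 (SYN1, minus strand), chr7:83163008-83163067 (PCLO, minus strand), chr15:91099522-91099581 (SV2B, plus strand) and chr5:76083136-76083195 (SV2C, plus strand).
CPLX3: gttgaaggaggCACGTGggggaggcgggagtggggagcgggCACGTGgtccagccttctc
UNC13A: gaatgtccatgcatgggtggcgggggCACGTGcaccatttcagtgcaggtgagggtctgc
SYN1: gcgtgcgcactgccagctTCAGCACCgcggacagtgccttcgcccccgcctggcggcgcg
PCLO: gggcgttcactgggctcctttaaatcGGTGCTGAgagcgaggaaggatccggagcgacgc
SV2B: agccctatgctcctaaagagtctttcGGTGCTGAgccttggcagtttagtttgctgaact
SV2C: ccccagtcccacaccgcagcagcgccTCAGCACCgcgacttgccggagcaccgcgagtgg

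Across the 24 gene pairs listed, 18 had at least 10 counts of both genes in every library. The within-library ratio did not overlap between groups for 13 of these 18. For single genes the groups did not overlap in 76.8% of all genes tested, and no such share was computed for ratios. MAP2 enters both the pair with MAPT and the pair with MAP1B. In 7 of the 13 the ratio was higher under the MYCN hairpin and in 6 lower. No pair could pass, because the smallest exact permutation p for 3 against 3 libraries is 0.1. The 5 pairs that overlapped were SYT1 with SYT2, SYN3 with SYN1, SV2C with SV2A, DLG2 with DLG4 and NLGN3 with NLGN2.

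A wider list of 197 genes of the same roles, of which 188 had a row and 165 were tested, held 70 higher and 57 lower and had a median log2 fold change of 0.04 (0.22 with library sizes alone). The share called, 77.0%, was near the 75.8% of all genes tested. The genes named from it had the smallest p of their role and direction, which need not be the largest change. In fusion and calcium sensing 9 of 25 tested rose and 12 fell. NSF, the ATPase that takes SNARE complexes apart, fell from 168, 166 and 173 CPM to 73.4, 69.9 and 67.7 CPM (log2 fold change -1.27). VAMP3, a vesicle SNARE of many cell types, rose from 16.9, 16.7 and 16.8 CPM to 68.7, 64.1 and 66.3 CPM. Among 32 vesicle genes 12 rose and 12 fell: RAB3A, the small GTPase of synaptic vesicles, went from 21.9, 24.3 and 22.7 CPM to 5.71, 5.91 and 5.31 CPM (log2 fold change -2.02), and DNM3, a dynamin of vesicle recovery, rose by 2.76. Of 19 active zone genes 7 rose and 6 fell, with CADPS, a priming factor, at -1.46 and LIN7A, an adaptor, at 2.12.

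In the other roles of this wider list, ribbon synapse genes had 6 of 13 tested members higher and 3 lower. EGFLAM, which encodes pikachurin of the photoreceptor synaptic cleft, rose by 0.45, and CABP2, a calcium channel modulator, had 70 control counts and 6 under the MYCN hairpin. Postsynaptic scaffold genes had 9 of 18 tested members higher and 5 lower, with SIPA1L1 at 0.86. Adhesion genes had 11 of 24 tested members higher and 9 lower. CADM1, a synaptic cell adhesion molecule, rose from 52.6, 53.0 and 54.3 CPM to 251, 245 and 253 CPM, and CNTNAP2, a relative of neurexins, fell from 80.9, 76.1 and 79.6 CPM to 26.5, 26.1 and 26.7 CPM. Axon and cytoskeleton genes had 16 of 34 tested members higher and 10 lower, and the smallest p in each direction belonged to DPYSL2, a collapsin response mediator, at 1.10 and MARCKS, an actin-linked membrane protein, at -1.02.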

How the data were processed

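The authors deposited estimated counts per gene symbol for 6 libraries, per the file headers, not scaled between libraries, and between 12.5% and 12.8% of the values are not whole. Per the submitters' processing notes, GRCh38 was the build. No source used here names the aligner, the counter, the annotation or the strand setting. Of 17035 rows, 22 without values were left out.

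Counts were rounded, genes passing filterByExpr (minimum count 10) were tested with the edgeR 4.0.16 quasi-likelihood F-test (robust, TMM; R 4.3.3), and p-values were adjusted by Benjamini-Hochberg at 0.05 over the 12819 genes tested. SE was derived from F, and 95% intervals of fold changes are normal intervals from it. Ratios between paired genes used counts plus 0.5. Levels per kilobase used 1 protein-coding GENCODE 29 transcript per gene and depend on that choice. Replicates differed by more than sampling noise (chi-square over its degrees of freedom 1.73 to 4.23, genes with at least 50 counts), so each counted as 1 sample. The biological coefficient of variation was 3.34%. The fit was tested on simulated counts in which few genes changed, unlike here, where 75.8% of genes tested were called. That test does not probe the scaling between libraries.

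The members, role groups, pairs and lists were chosen with earlier results of these data known. Given in full were called, separated members of at least 1 CPM and 2-fold change, up to 4 per role. Members of at least 5 CPM that did not pass were named. The wider list was named by the smallest p per role and direction. Some genes that this rule names are not reported here. Family shares, motifs and exon overlaps were chosen after values were seen. Alternatives were DESeq2 1.42.0, limma-voom 3.58.1, 3 other scalings, 2 other filters, a 2-fold minimum, a replicate block and each library left out. Python 3.11.15, pandas 2.3.3, scipy 1.17.1 and matplotlib 3.10.9 were used.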

Additional observations from a re-analysis of the deposited data

How the results depend on the processing

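For the 43 tested members, 576 of 601 values under 14 settings counted as unchanged, 21 lost the call, 1 gained it and 3 reversed. These changes lay in 8 members. Library sizes alone reversed the called members SYP (0.053), SV2B (0.067) and MAP1B (0.092). A change of sign counted as unchanged where neither value was called, as for SYN1 (-0.13, and 0.05 with library sizes alone). SYN3, SYT2, SHANK1, DLG2 and NLGN3 also changed sign in this way under at least 1 setting. Members called higher were 12 to 15 and lower 17 to 23 over these settings, and 12 to 13 and 21 to 23 with a library left out. At least 2-fold, 2 members were higher and 5 lower, against 1184 and 673 of all genes. Over all genes 4865 were higher and 4857 lower, and 6597 and 3348 with library sizes alone. With the replicate block 4967 and 4939 genes and 13 and 23 members were called. Same-numbered libraries had correlations of deviations of 0.111, 0.081 and 0.003. Control replicates 1 and 2 correlated best with the MYCN hairpin library of their own number. Control replicate 3 did so with MYCN hairpin replicate 2 (0.068). Whether a number marks libraries handled together was not tested. Ratios of gene pairs without overlap numbered 13 to 16 with a library left out and 14 with an offset of 5 counts. Leaving out a library cannot create an overlap, so the first of these counts could only stay or rise. Other than with library sizes alone, role medians moved by at most 0.11, and 1 changed sign (postsynaptic scaffold, -0.0019 without MYCN hairpin replicate 2). Depth limits the genes under about 1 CPM, of which 7 members were not tested.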

Other observations

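Other cytoskeleton and release genes of the wider list, chosen after their values were seen, extend the description. The neurofilament family did not move as one. NEFH, the heavy chain, rose by 0.31 from 227, 236 and 256 CPM to 302, 286 and 305 CPM (edgeR, adjusted p = 9.6e-09), whereas INA, alpha-internexin, had a log2 fold change of -0.49, from 416, 402 and 450 CPM to 299, 300 and 305 CPM. PRPH, peripherin, did not pass, at 1.12 and 0.983 CPM. Of other microtubule regulators, MAP6 went from 4.40, 4.80 and 4.02 CPM to 12.4, 12.5 and 13.2 CPM and DCLK2, a doublecortin-like kinase, from 6.43, 5.80 and 5.20 CPM to 28.9, 27.9 and 25.0 CPM. UCHL1, a ubiquitin hydrolase abundant in neurons, fell by 0.76 and STMN1, a tubulin-binding stathmin, by 0.63.

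RIMBP2, which links RIM proteins to calcium channels, had a log2 fold change of -2.20 and RIMS3 one of -0.92, the opposite direction to RIMS2. SNCB, beta-synuclein, went from 237 to 66 summed counts. SYT17 went from 60 to 525 and SYT6 from 69 to 9. CACNA1F, the calcium channel of photoreceptor ribbon terminals, rose by 0.28 from 96.4 ± 4.8 to 117 ± 7.0 CPM (SD, n = 3). UNC119, a protein of ribbon terminals, rose by 0.33.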
